A study of Mus musculus with 4 samples.

Results

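The 9 genes described here are *Phgdh*, *Psat1*, *Psph*, *Sfxn1*, *Shmt2*, *Mthfd2*, *Mthfd2l*, *Mthfd1l* and *Aldh1l2*, the enzymes of serine synthesis and of the mitochondrial branch of folate metabolism with the carrier that joins them. They were found by symbol, and all 9 were among the 32286 features counted. Nuclear RNA was counted in 4 libraries from the cortex and hippocampus of mice at 5 weeks, prepared from sorted nuclei with 10x Genomics 3′ chemistry. The 2 libraries of the genotype Sel1L flox/flox are labelled WT1 and WT2, and the 2 of the genotype Sel1L Syn-Cre are labelled KO1 and KO2. All 4 mice carried the floxed *Sel1l* allele, and in Sel1L Syn-Cre mice a Cre recombinase under the Synapsin I promoter, which is active in neurons, deletes it. *Sel1l* encodes a subunit of a ubiquitin ligase complex that removes misfolded proteins from the endoplasmic reticulum. The comparisons address how these genes are divided between glia and neurons and how far their RNA differs by genotype in each glial class.

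Cells make serine from a glycolysis intermediate in a short chain of reactions. PHGDH oxidises the substrate, PSAT1 adds the amino group and PSPH removes the phosphate. In mitochondria, which serine enters through SFXN1, SHMT2 splits it into glycine and a one-carbon unit carried on tetrahydrofolate. MTHFD2 and its paralog MTHFD2L oxidise that unit, MTHFD1L releases it as formate for use in the cytosol, and ALDH1L2 oxidises it to CO2 instead. In the brain, astrocytes are known as a main site of serine synthesis, and several of the genes are known targets of ATF4, a transcription factor of the integrated stress response.

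In the annotation GENCODE vM21 of GRCm38, the serine synthesis genes lie at chr3:98313170-98339990 (*Phgdh*, minus strand), chr19:15904678-15947337 (*Psat1*, minus) and chr5:129765558-129787449 (*Psph*, minus). *Sfxn1* lies at chr13:54071869-54108342 (plus) and *Shmt2* at chr10:127517123-127522444 (minus). The folate genes lie at chr6:83305691-83325908 (*Mthfd2*, minus), chr5:90931117-91021368 (*Mthfd2l*, plus), chr10:3973118-4167081 (*Mthfd1l*, plus) and chr10:83487450-83534140 (*Aldh1l2*, minus).

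The promoters of *Phgdh*, the entry enzyme, of *Mthfd2*, and of *Mthfd2l*, the paralog of *Mthfd2*, are given because these genes differ in their results below. Each run covers 250 bases before and 50 bases after a RefSeq transcription start, 5′ to 3′ on the gene's strand, in GRCm38.p6, and capitals mark CCAAT, or ATTGG where it lies on the other strand. *Phgdh* is at chr3:98339920-98340219 on the minus strand, *Mthfd2* at chr6:83317555-83317854 on the minus strand, and *Mthfd2l* at chr5:90930946-90931245 on the plus strand.
Phgdh: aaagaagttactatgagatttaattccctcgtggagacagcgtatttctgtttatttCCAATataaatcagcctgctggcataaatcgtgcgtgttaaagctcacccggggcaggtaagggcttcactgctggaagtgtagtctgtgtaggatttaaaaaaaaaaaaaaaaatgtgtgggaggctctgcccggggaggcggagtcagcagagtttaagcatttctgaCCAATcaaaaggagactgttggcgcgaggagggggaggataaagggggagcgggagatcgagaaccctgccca
Mthfd2: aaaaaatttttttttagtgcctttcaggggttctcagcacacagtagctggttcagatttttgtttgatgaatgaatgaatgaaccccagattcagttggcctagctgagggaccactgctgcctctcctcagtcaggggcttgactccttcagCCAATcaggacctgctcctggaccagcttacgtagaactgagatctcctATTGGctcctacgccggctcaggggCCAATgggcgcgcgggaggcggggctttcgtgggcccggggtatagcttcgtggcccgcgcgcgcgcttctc
Mthfd2l: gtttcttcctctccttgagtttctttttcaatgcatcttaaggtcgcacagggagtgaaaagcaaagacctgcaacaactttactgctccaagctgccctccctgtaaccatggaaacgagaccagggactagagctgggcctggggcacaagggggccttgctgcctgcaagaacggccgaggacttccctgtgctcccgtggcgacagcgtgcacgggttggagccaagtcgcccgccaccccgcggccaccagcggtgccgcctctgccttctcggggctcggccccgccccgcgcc
CCAAT, the letters of the CCAAT box, occurred 2 times in the *Phgdh* window, 3 times in that of *Mthfd2* and 0 times in that of *Mthfd2l*. Of the 8 genes with a RefSeq promoter, 4 (*Phgdh*, *Psat1*, *Psph* and *Mthfd2*) had it in a window, against 41.1% of all 27025 genes. By window, the share was 37.4% of all 32851. The letters TGATGNAA (found in 3.97% of windows), TGACGTCA (1.79%) and CACGTG (7.15%) and the ER stress response element (0.119%, its first letters being CCAAT), each searched on both strands, were in no window of the 8 genes. *Aldh1l2* was not matched.

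After filtering, 6797 to 11092 nuclei and 66073797 to 100678373 UMIs, which are single captured RNA molecules, were kept per library. Library pairs shared 10 to 34 cell barcodes. The features include the Cre RNA, and the library labelled WT1 held 408 Cre UMIs against 0, 236 and 221 in those labelled WT2, KO1 and KO2. The library labelled WT1 therefore goes against its label in this respect, and each count of the 9 genes between genotypes is also given without it. Baseline levels are given for each library, and the baseline tests and the counts of other gene lists were not refitted without it. *Sel1l* reached 97.1, 90.0, 155 and 128 CPM (a gene's UMIs scaled to a common total) in the libraries labelled WT1, WT2, KO1 and KO2, and a 3′ count does not show whether an exon was deleted. Per class, Cre had 31, 0, 19 and 12 UMIs in OPC-like nuclei (17.8, 0, 16.8 and 11.6 CPM) and 369, 0, 211 and 206 in neuron-like nuclei (4.24, 0, 3.56 and 3.37 CPM). Astrocyte-like, oligodendrocyte-like and *Inpp5d Siglech* nuclei held 0 to 2 Cre UMIs in each library.

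Nuclei were named by marker genes after clustering without the genes described here. There were 22564 neuron-like, 1637 astrocyte-like, 3735 oligodendrocyte-like and 1281 oligodendrocyte precursor cell-like (OPC-like) nuclei, and 191 immature oligodendrocyte-like nuclei. When glial nuclei were clustered again, some sub-clusters stayed unnamed and kept the name of their parent cluster. In the libraries labelled WT1, WT2, KO1 and KO2 these held 859, 565, 190 and 191 oligodendrocyte-like nuclei. They also held 77, 27, 89 and 48 astrocyte-like nuclei, in a sub-cluster led by *Cfap44* and *Enkur*. A cluster of 2139 nuclei led by *Inpp5d* and *Siglech* had 6 of 7 microglial markers but few UMIs per nucleus, and is called by its leading genes. Median UMIs per nucleus were 10016 to 10705.5 in neuron-like nuclei, 2999.5 to 3203.5 in astrocyte-like, 3614 to 3880.5 in OPC-like, 2567 to 3259.5 in oligodendrocyte-like and 1745.5 to 1921 in *Inpp5d Siglech* nuclei. UMIs were summed per class and library, so levels in CPM are shares of a class's RNA and not amounts per nucleus. The mouse is the replicate, with 2 per genotype, and p-values are from edgeR's quasi-likelihood test, two-sided and adjusted by Benjamini-Hochberg over all genes tested, with 0.05 as the threshold. An exact permutation of 2 against 2 libraries cannot give a two-sided p below 0.333. Where the genotypes did not overlap, this is a description, because the share of all genes without overlap was not counted.

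In the Sel1L flox/flox libraries, the 3 serine synthesis genes were higher in astrocyte-like, OPC-like, immature oligodendrocyte-like and oligodendrocyte-like nuclei than in neuron-like nuclei, and the mitochondrial folate genes were divided. *Phgdh* was at 67.1 and 85.4 CPM in astrocyte-like nuclei of the libraries labelled WT1 and WT2, 54.5 and 67.9 in oligodendrocyte-like, 32.0 and 34.3 in *Inpp5d Siglech*, 11.5 and 17.4 in OPC-like, 9.0 and 13.4 in immature oligodendrocyte-like, and 1.95 and 2.05 in neuron-like nuclei. All glial values lay above both neuronal ones, and the astrocyte-like and oligodendrocyte-like ranges overlapped, as did those of the OPC-like and immature oligodendrocyte-like nuclei. On the log2 scale, the difference from neuron-like nuclei was 4.92 ± 0.184 (SE) in astrocyte-like nuclei (edgeR adjusted p = 1.11e-15), 4.86 ± 0.132 in oligodendrocyte-like (adjusted p = 2.06e-18), 3.58 ± 0.220 in *Inpp5d Siglech* (adjusted p = 2.64e-12), 2.58 ± 0.279 in OPC-like (adjusted p = 6.97e-08) and 2.25 ± 0.518 in immature oligodendrocyte-like nuclei (adjusted p = 0.00107). In the library labelled WT2 alone, the unscaled ratio to neuron-like nuclei was 41.7 in astrocyte-like and 33.2 in oligodendrocyte-like nuclei.

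Among the 5 larger classes, *Psat1* had its highest level in oligodendrocyte-like nuclei, at 61.3 and 88.0 CPM, followed by astrocyte-like (42.05 and 48.0), OPC-like (39.6 and 41.4), *Inpp5d Siglech* (6.52 and 7.91) and neuron-like nuclei (3.04 and 3.21). The ranges of neighbours in that order did not overlap. The difference from neuron-like nuclei was 4.48 ± 0.136 in oligodendrocyte-like (edgeR adjusted p = 1.43e-17), 3.55 ± 0.230 in astrocyte-like (adjusted p = 1.20e-11), 3.45 ± 0.207 in OPC-like (adjusted p = 4.64e-12) and 3.96 ± 0.300 in immature oligodendrocyte-like nuclei (adjusted p = 2.93e-10). *Psph*, the last step, was at 42.05 and 41.4 CPM in astrocyte-like, 35.3 and 36.5 in oligodendrocyte-like, 28.2 and 27.6 in OPC-like and 12.3 and 13.8 in neuron-like nuclei. Its differences were smaller, 0.86 to 1.41 in these 3 glial classes and 1.20 in immature oligodendrocyte-like nuclei, and all passed. In *Inpp5d Siglech* nuclei, at 13.1 and 13.2 CPM, its level lay within the neuronal range.

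**Figure D1:**
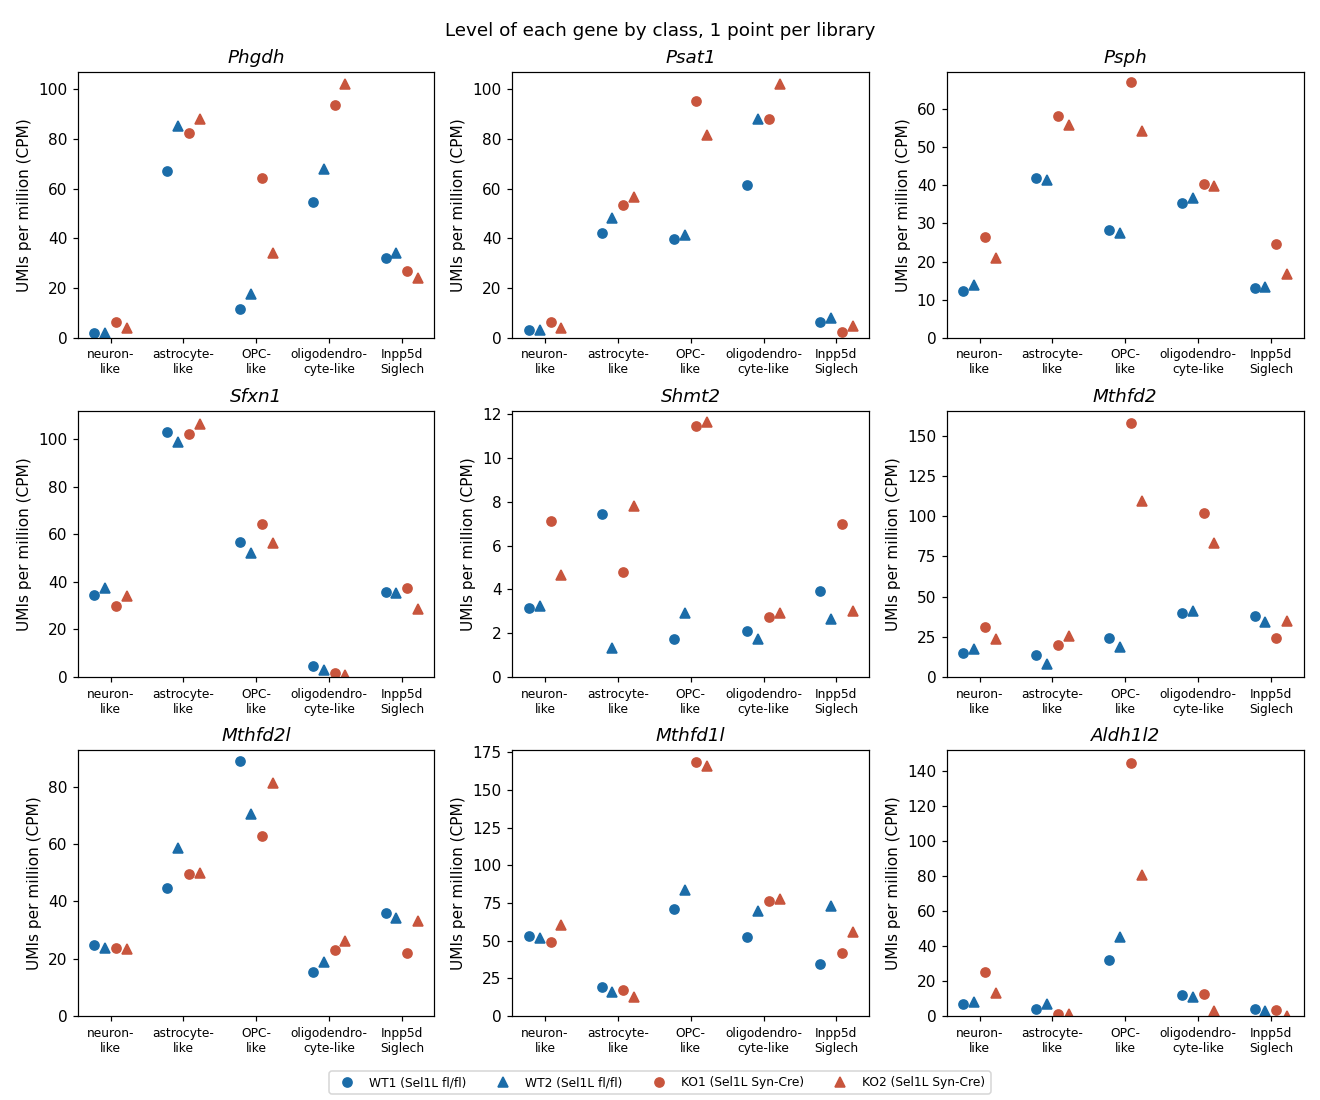
CPM of each gene in neuron-like, astrocyte-like, OPC-like, oligodendrocyte-like and *Inpp5d Siglech* nuclei, with 1 point per library (blue, Sel1L flox/flox, labelled WT1 and WT2; red, Sel1L Syn-Cre, labelled KO1 and KO2). *Phgdh* lies at 1.95 to 6.44 in neuron-like nuclei and at 67.1 to 88.0 in astrocyte-like nuclei, and in OPC-like nuclei the red points of *Mthfd2* (158 and 110) lie above the blue ones (24.1 and 18.9).

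*Sfxn1*, the mitochondrial serine carrier, separated the macroglia. It was at 103 and 98.7 CPM in astrocyte-like nuclei, 56.9 and 52.3 in OPC-like, 34.5 and 37.4 in neuron-like, and 4.77 and 2.88 in oligodendrocyte-like nuclei. The oligodendrocyte-like values, from 32 and 10 UMIs, lay below all others. Relative to neuron-like nuclei the difference was 1.20 ± 0.135 in astrocyte-like (edgeR adjusted p = 9.89e-08) and -3.19 ± 0.182 in oligodendrocyte-like nuclei (adjusted p = 5.71e-13). In OPC-like nuclei it was 0.37 ± 0.140 (adjusted p = 0.0319), which did not pass with DESeq2, without a filter or with doublets kept. *Shmt2*, which generates the one-carbon unit, was sparse in every class (1.33 to 7.46 CPM in the 5 classes plotted), and none of its 5 baseline differences passed.

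The paired oxidising enzymes had different glial patterns. *Mthfd2* was highest in oligodendrocyte-like nuclei (39.9 and 41.1 CPM), where the difference from neuron-like nuclei (14.6 and 17.3) was 1.30 ± 0.129 (edgeR adjusted p = 7.38e-09), and lowest in astrocyte-like nuclei (13.6 and 8.01), with a difference of -0.74 ± 0.287 (adjusted p = 0.0330) that DESeq2 did not call. *Mthfd2l* was highest in OPC-like nuclei (89.0 and 70.4 CPM), with a difference from neuron-like nuclei (24.9 and 23.8) of 1.48 ± 0.142 (adjusted p = 1.06e-08), and lowest in oligodendrocyte-like nuclei (15.3 and 18.7), with -0.61 ± 0.149 (adjusted p = 0.00102). The paralogs thus passed in opposite directions in both astrocyte-like nuclei, where *Mthfd2l* was higher by 0.73 ± 0.181 (adjusted p = 0.00153), and oligodendrocyte-like nuclei. In the Sel1L Syn-Cre libraries the oligodendrocyte-like difference of *Mthfd2l* was -0.0027 and did not pass.

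*Mthfd1l*, which releases formate, was lowest in astrocyte-like nuclei, at 19.0 and 16.0 CPM against 52.9 and 51.5 in neuron-like nuclei, a difference of -1.81 ± 0.261 (edgeR adjusted p = 3.40e-06). Its differences of 0.31 in OPC-like and 0.14 in oligodendrocyte-like nuclei did not pass. *Aldh1l2* stood highest in OPC-like nuclei, at 32.2 and 45.0 CPM against 7.08 and 8.18 in neuron-like nuclei, a difference of 2.09 ± 0.193 (adjusted p = 6.29e-09). It was 0.59 ± 0.183 higher in oligodendrocyte-like nuclei (adjusted p = 0.00676), a call that DESeq2 and the fit with doublets did not make, and 1.62 ± 0.408 lower in *Inpp5d Siglech* nuclei, with 6 and 3 UMIs (adjusted p = 0.00126).

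**Figure D2:**
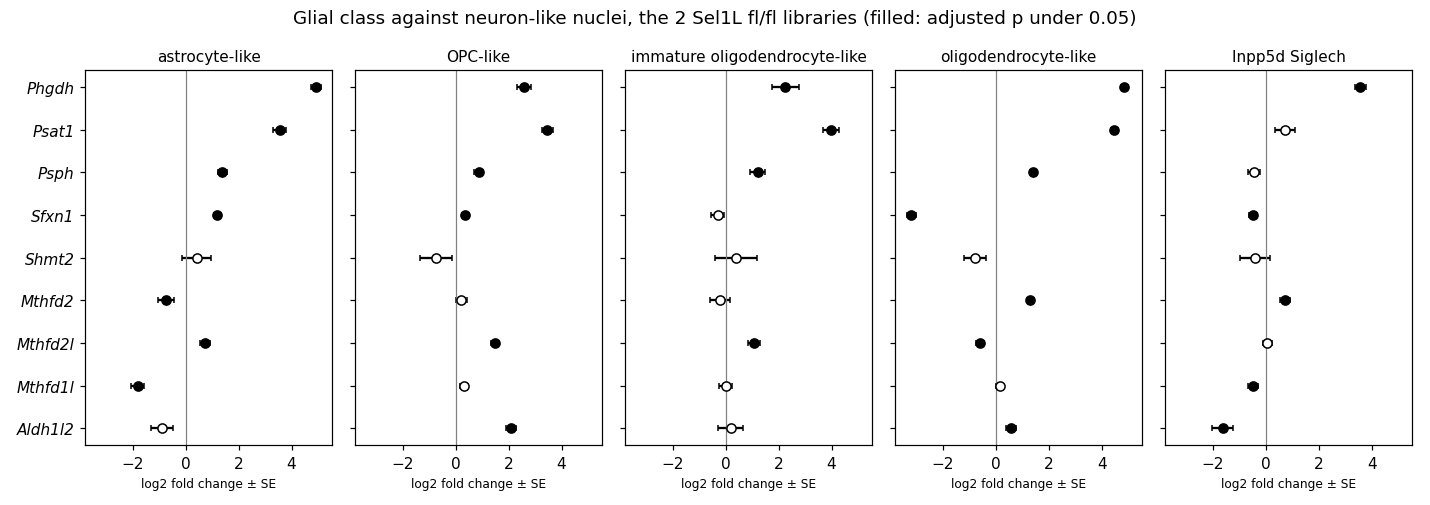
Difference in level between each glial class and neuron-like nuclei in the Sel1L flox/flox libraries, as log2 fold change ± SE from edgeR, with filled points past an adjusted p of 0.05. *Phgdh*, *Psat1* and *Psph* lie to the right of 0 in the first 4 panels, and *Sfxn1* runs from 1.20 in astrocyte-like to -3.19 in oligodendrocyte-like nuclei.

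By counts, 5 of 9 genes were higher and 2 lower in astrocyte-like nuclei than in neuron-like nuclei, where 26.8% of all genes tested were higher and 29.2% lower. In oligodendrocyte-like nuclei 5 were higher and 2 lower, against 34.6% and 36.0% of all genes. In OPC-like nuclei 6 were higher and 0 lower (24.2% and 26.8%), and in immature oligodendrocyte-like nuclei 4 were higher and 0 lower (20.8% and 24.9%). In *Inpp5d Siglech* nuclei 2 were higher and 3 lower (33.4% and 36.7%). There, TMM scaling placed *Sfxn1* at -0.48 and *Mthfd1l* at -0.49, while their unscaled mean levels (35.5 and 53.8 CPM) nearly equalled those of neuron-like nuclei (36.0 and 52.2), so both calls rest on the scaling.

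Neuron-like nuclei were 62.9% and 67.1% of nuclei in the libraries labelled WT1 and WT2 and held more UMIs each than glial nuclei, so shares of a gene's UMIs differ from its levels in CPM. Oligodendrocyte-like nuclei, 16.6% and 14.9% of nuclei, held 50.4% (95% Wilson interval 46.8 to 54.0) and 47.4% (43.0 to 51.8) of *Phgdh* UMIs in the libraries labelled WT1 and WT2, and 48.1% and 48.1% of *Psat1* UMIs. Neuron-like nuclei held 23.4% and 25.1% of *Phgdh* and 31.0% and 30.8% of *Psat1* UMIs, but 71.9% and 78.7% of *Psph*, 85.8% and 90.8% of *Shmt2*, 87.5% and 86.5% of *Mthfd1l* and 88.5% and 91.3% of *Sfxn1* UMIs. For *Phgdh* and *Psat1*, the first steps, most UMIs were thus outside neuron-like nuclei, and for the other genes most were inside them. Of the UMIs of all genes, neuron-like nuclei held 87137441 of 100678373 in the library labelled WT1 and 61043442 of 68582618 in WT2. Most RNA of any kind was thus in neuron-like nuclei, so a majority there is not read as a result about these genes. These intervals cover counting error only.

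The share of nuclei with a *Phgdh* UMI, after thinning each nucleus to 2000 UMIs, was 14.1% and 16.3% in astrocyte-like nuclei and 0.417% and 0.741% in neuron-like nuclei of the libraries labelled WT1 and WT2. Unthinned shares were 19.1% and 23.2% against 2.22% and 2.27%. Thinning left out 30 to 74 astrocyte-like and 12 to 24 neuron-like nuclei per library. Free RNA in the droplets can add such UMIs, and no class was taken as lacking *Phgdh*. How much of the low neuronal share is expression was therefore not measured. The same limit holds for the neuronal *Phgdh* levels in the other comparisons.

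Among the glial classes, OPC-like nuclei had the most of these genes past the threshold between genotypes. There, 7 of 9 genes were higher in Sel1L Syn-Cre than in Sel1L flox/flox mice and 0 were lower. Of all genes tested there, 1.86% were higher and 1.18% lower. The 7 were the 3 serine synthesis genes and *Shmt2*, *Mthfd2*, *Mthfd1l* and *Aldh1l2*, and without the library labelled WT1 the count was 6. *Sfxn1* and *Mthfd2l* did not pass. All 9 genes entered the test. *Shmt2* lay under the filter's level in both Sel1L flox/flox libraries and entered only through the Sel1L Syn-Cre libraries, so a call could only be in that direction and the other 6 are the count to read.

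*Mthfd2* showed the largest difference by fold. It was at 24.1 and 18.9 CPM in the libraries labelled WT1 and WT2 and at 158 and 110 in those labelled KO1 and KO2, with 42, 26, 179 and 113 UMIs. Both Sel1L Syn-Cre values lay far above both others. The log2 fold change was 2.62 ± 0.231 (6.17-fold, edgeR adjusted p = 2.64e-07), and 2.85 without the library labelled WT1. After thinning to 2000 UMIs, 3.05% and 3.27% of flox/flox nuclei and 29.1% and 20.7% of Syn-Cre nuclei had a *Mthfd2* UMI. In astrocyte-like nuclei, at the same thinning, the shares were 4.0%, 1.58%, 4.40% and 5.68%. No class was taken as lacking *Mthfd2*, so free RNA has no measured level here. Unthinned, 8.00%, 6.09%, 47.5% and 35.4% of nuclei had one in the libraries labelled WT1, WT2, KO1 and KO2.

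In the serine branch, *Phgdh* in OPC-like nuclei was at 11.5, 17.4, 64.4 and 33.9 CPM in the libraries labelled WT1, WT2, KO1 and KO2, a change by 1.80 ± 0.325 in log2 units (edgeR adjusted p = 0.00153). The genotypes did not overlap, and the library labelled KO1 was nearly 2 times as high as KO2. *Psat1* was at 39.6, 41.4, 95.3 and 81.4 CPM, a change of 1.13 ± 0.198 (adjusted p = 0.00111). *Psph* was at 28.2, 27.6, 67.0 and 54.3 CPM, a change of 1.12 ± 0.235 (adjusted p = 0.00629). The pairs of each genotype were closer together for *Psat1* and *Psph* than for *Phgdh*. *Psph* did not pass with DESeq2 or without the library labelled KO1, where its adjusted p reached 0.137 at the highest.

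In the mitochondrial branch, *Mthfd1l* in OPC-like nuclei was at 70.7, 83.5, 168 and 166 CPM, a log2 difference of 1.12 ± 0.175 (edgeR adjusted p = 0.000323). *Aldh1l2* was at 32.2, 45.0, 145 and 80.5 CPM, a change of 1.57 ± 0.244 (adjusted p = 0.000323). Both genes had Syn-Cre values above both flox/flox values, with *Aldh1l2* spread more widely between the Syn-Cre mice. *Shmt2* rested on 3, 4, 13 and 12 UMIs (1.72, 2.90, 11.5 and 11.6 CPM) and a change of 2.31 ± 0.583 (adjusted p = 0.0281), which passed in 5 of 12 settings and not without any 1 of the 4 libraries (adjusted p up to 0.484). *Sfxn1*, at 56.9, 52.3, 64.4 and 56.2 CPM, changed by 0.15 ± 0.202 (adjusted p = 0.866), and *Mthfd2l*, at 89.0, 70.4, 62.6 and 81.4 CPM, by -0.16 ± 0.197 (adjusted p = 0.844). Their genotypes overlapped, so *Mthfd2* passed in this class and its paralog did not.

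Markers, *Sel1l* and Cre in OPC-like nuclei are set beside these results. The 7 neuronal markers summed to 1377, 1288, 1202 and 1360 CPM, with 0 of 7 at 0 in every library, and the genotypes overlapped. The 6 OPC markers summed to 8794, 9291, 7672 and 7738 CPM, lower in both Sel1L Syn-Cre libraries. *Sel1l* itself was at 113, 92.9, 416 and 184 CPM, higher in Sel1L Syn-Cre mice. Cre was at 17.8, 0, 16.8 and 11.6 CPM, against 4.24, 0, 3.56 and 3.37 in neuron-like nuclei. The part of these in the results was not tested.

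**Figure D3:**
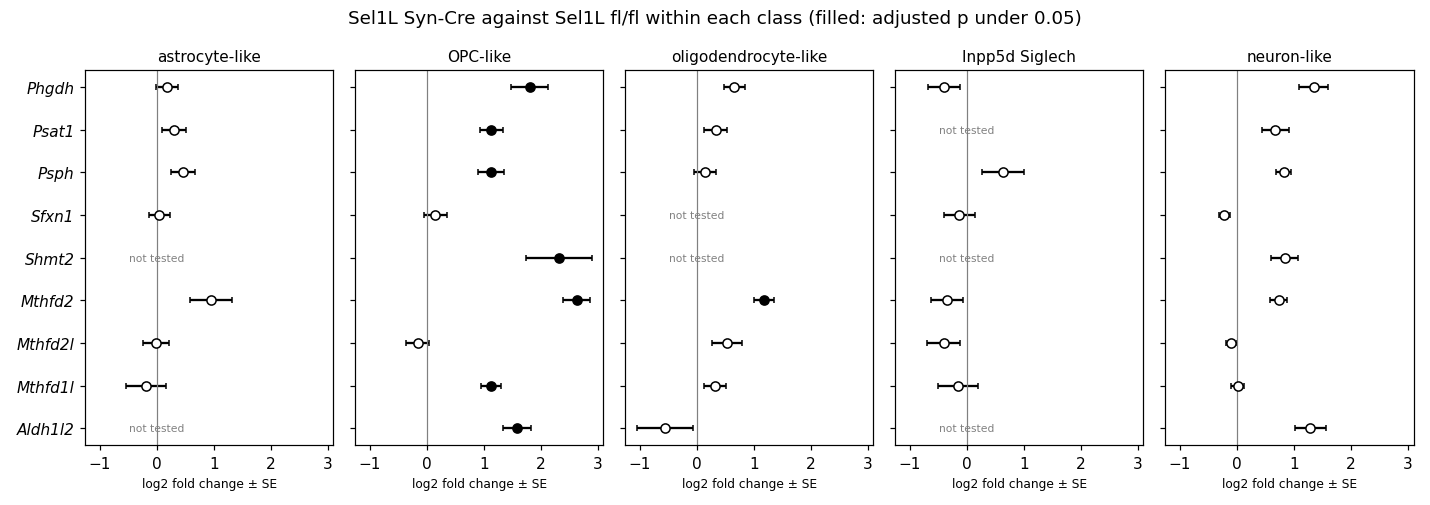
Difference between genotypes within each class, as log2 fold change ± SE of Sel1L Syn-Cre against Sel1L flox/flox, with filled points past an adjusted p of 0.05. In OPC-like nuclei 7 points are filled, in oligodendrocyte-like nuclei only *Mthfd2*, and none in the other 3 panels. *Shmt2*, among the 7, entered only through the Sel1L Syn-Cre libraries.

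In oligodendrocyte-like nuclei 1 of the 7 genes tested was higher and 0 were lower, against 0.759% and 0.209% of all genes, and 1 was without the library labelled WT1. *Mthfd2* was at 39.9, 41.1, 102 and 83.5 CPM, a log2 difference of 1.18 ± 0.183 (edgeR adjusted p = 0.0150). Both Sel1L Syn-Cre values were about double the other pair, and the adjusted p was 0.0520 with doublets kept. *Phgdh* was at 54.5, 67.9, 93.7 and 102 CPM, a change of 0.66 ± 0.178 (adjusted p = 0.146). It did not overlap between genotypes but did not pass. *Psat1* (0.33), *Psph* (0.14), *Mthfd2l* (0.52) and *Mthfd1l* (0.32) also had both Syn-Cre values above both others and did not pass, and *Aldh1l2* (-0.56) overlapped. For *Psph* the levels were as close as 35.3, 36.5, 40.4 and 39.8 CPM. The share of all genes in that order was not counted, so it is not read as a rise. *Sfxn1*, with 32, 10, 2 and 1 UMIs, and *Shmt2*, with 14, 6, 3 and 3, were too low to test. Oligodendrocyte markers summed to 15990, 15850, 14670 and 12720 CPM and were lower in both Syn-Cre libraries, which also had fewer such nuclei (355 and 365 against 1842 and 1173). Their part in the result was not tested.

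In astrocyte-like nuclei 0 of the 7 genes tested passed in edgeR, where 0.345% of all genes did in either direction, and 0 passed without the library labelled WT1 or with DESeq2. *Phgdh* was at 67.1, 85.4, 82.3 and 88.0 CPM, a log2 difference of 0.18 ± 0.196 (edgeR adjusted p = 0.824), and *Sfxn1* at 103, 98.7, 102 and 107 CPM, a change of 0.05 ± 0.176 (adjusted p = 0.967). Both overlapped between genotypes. *Mthfd2*, at 13.6, 8.01, 19.9 and 25.4 CPM from 20, 6, 50 and 26 UMIs, changed by 0.95 ± 0.371, with an unadjusted p of 0.0260 and an adjusted p of 0.385, and was the only gene of the 9 with an unadjusted p under 0.05 in this class. *Psat1* (0.30) and *Psph* (0.46) also had both Syn-Cre values above both others without passing.

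In *Inpp5d Siglech* nuclei 0 of the 6 genes tested passed in edgeR, where 0.0381% of all genes did, and 0 passed without the library labelled WT1 or with DESeq2. None of the 6 had an unadjusted p under 0.05. *Phgdh* was at 32.0, 34.3, 26.8 and 24.2 CPM, lower in both Sel1L Syn-Cre libraries, with a log2 difference of -0.40 ± 0.277 (edgeR adjusted p = 0.748). *Psat1*, *Shmt2* and *Aldh1l2* were too low to test, at 0 to 10 UMIs per library.

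In all neuron-like nuclei combined, 0 of 9 genes passed, where 0.164% of all genes did. The count was 4 with DESeq2, 4 without a filter and 4 with the replicate number as a block, 0 without the library labelled WT1 and 5 without that labelled KO2. *Phgdh* was at 1.95, 2.05, 6.44 and 4.06 CPM, a log2 difference of 1.35 ± 0.258 (edgeR adjusted p = 0.105). *Psph* was at 12.3, 13.8, 26.5 and 21.0 CPM, a change of 0.82 ± 0.137 (adjusted p = 0.0788). *Aldh1l2* was at 7.08, 8.18, 24.9 and 13.4 CPM, a change of 1.29 ± 0.267 (adjusted p = 0.126). Their genotypes did not overlap, nor did those of *Psat1* (0.68), *Shmt2* (0.83) and *Mthfd2* (0.73), and all 6 were higher in both Sel1L Syn-Cre libraries. *Sfxn1* (-0.22) and *Mthfd2l* (-0.10) did not overlap either and were lower in both, while *Mthfd1l* (0.01) overlapped. The levels nearly touched, at 34.51, 37.42, 29.71 and 34.19 CPM for *Sfxn1* and 24.91, 23.82, 23.77 and 23.53 for *Mthfd2l*. The share of all genes without overlap was not counted in this class, so these orders are descriptions.

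By neuronal subtype, 18 values of these genes passed in 4 of 11 subtypes, all higher in Sel1L Syn-Cre mice. In *Sst*-like interneurons 7 of 9 were higher and 0 lower (4.66% and 3.81% of all genes). Of these, *Phgdh*, *Psat1* and *Shmt2* entered only through the Sel1L Syn-Cre libraries, which leaves 4. *Aldh1l2* there was at 24.3, 29.0, 236 and 156 CPM, a log2 difference of 2.81 ± 0.206 (edgeR adjusted p = 2.36e-07), and *Phgdh* at 3.76, 2.63, 32.3 and 19.7 CPM, a change of 2.88 ± 0.387 (adjusted p = 0.000144). Both had Sel1L Syn-Cre values above both others. In this subtype *Sfxn1* and *Mthfd2l* did not pass, as in OPC-like nuclei.

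In dentate gyrus (DG)-like neurons 5 of 9 were higher and 0 lower (1.91% and 1.67% of all genes), with *Mthfd2* at 13.4, 13.1, 56.6 and 27.6 CPM and a log2 difference of 1.62 ± 0.272 (edgeR adjusted p = 0.00490). In *Pvalb*-like interneurons 3 were higher and 0 lower (2.14% and 1.90%), namely *Phgdh* (1.98), *Psph* (1.20) and *Aldh1l2* (1.51). In L4/5 IT-like neurons 3 were higher and 0 lower (1.32% and 0.629%), namely *Phgdh* (2.33, entering only through the Sel1L Syn-Cre libraries), *Psph* (1.45) and *Mthfd2* (1.48). *Psph* passed in all 4 subtypes, also without the library labelled WT1. *Psat1* passed in *Sst*-like nuclei (2.25), and without that library in L4/5 IT-like nuclei (1.72, edgeR adjusted p = 0.0359) and not in *Sst*-like nuclei (1.95, adjusted p = 0.0939). Without the library labelled WT1 the counts were 5 in *Sst*-like, 4 in DG-like, 1 in *Pvalb*-like and 5 in L4/5 IT-like nuclei. Over the subtypes, 10 values passed without that labelled KO1.

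In the other 7 subtypes 0 of the genes passed. Of all genes tested, 0.216% passed in L2/3 IT-like, 0.577% in L6 CT-like, 0.249% in L5/6 NP-like, 0.0155% in CA1-like, 0.0493% in CA3-like, 0.0268% in *Vip*-like and 0.450% in *Lamp5*-like nuclei. In *Lamp5*-like nuclei all 9 genes had both Sel1L Syn-Cre values above both others, and 1 passed without the library labelled WT1, where the other 6 subtypes stayed at 0. In *Vip*-like nuclei no gene had both Sel1L Syn-Cre values above both others. The share of all genes in that order was not counted in either subtype, so these orders are descriptions. Cre is given for all 11 subtypes in the order WT1, WT2, KO1 and KO2. It was at 20.9, 0, 17.5 and 14.8 CPM in *Sst*-like and 29.7, 0, 29.1 and 26.1 in *Pvalb*-like nuclei. In DG-like nuclei it was at 6.75, 0, 5.58 and 7.11, and in L4/5 IT-like at 4.52, 0, 3.74 and 3.885. *Lamp5*-like nuclei had 11.5, 0, 8.29 and 7.62, *Vip*-like 0.473, 0, 1.21 and 3.44, and CA3-like 3.54, 0, 4.40 and 8.18. L2/3 IT-like had 1.11, 0, 1.16 and 0.573, and L6 CT-like 1.40, 0, 1.68 and 1.355. L5/6 NP-like had 1.83, 0, 0 and 0.503, and CA1-like 0.695, 0, 0.281 and 0.276. The part of Cre in these results was not tested.

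**Figure D4:**
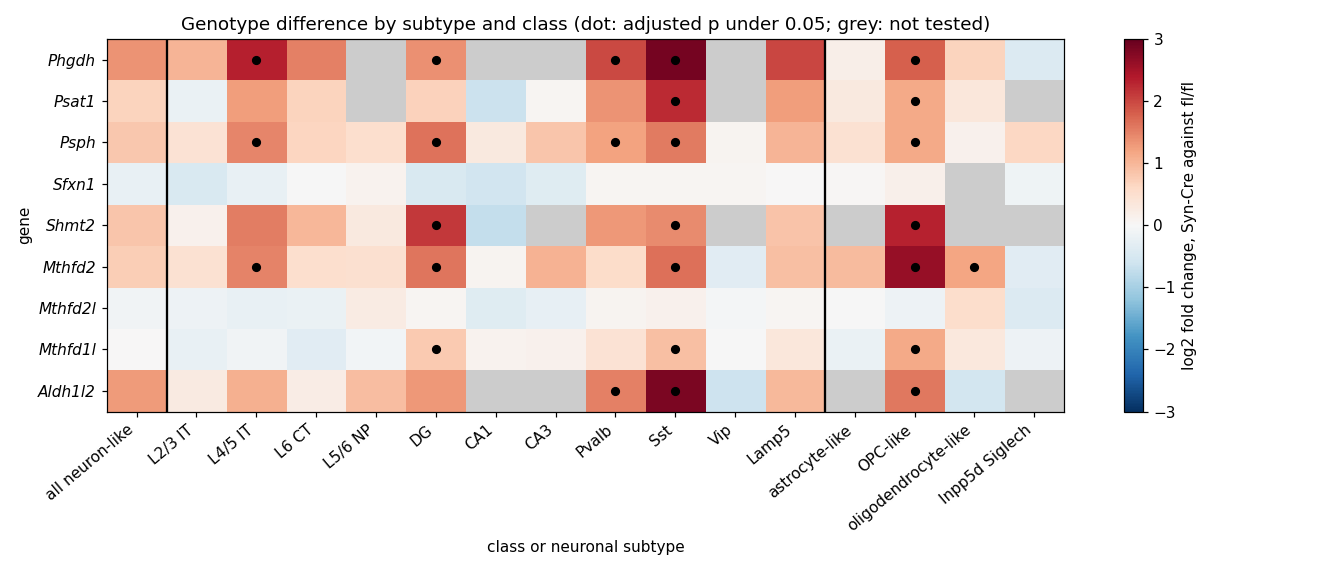
Log2 fold change of Sel1L Syn-Cre against Sel1L flox/flox for each gene in all neuron-like nuclei, 11 neuronal subtypes and 4 glial classes (red higher, blue lower, grey not tested, dots past an adjusted p of 0.05). The columns of *Sst*-like and OPC-like nuclei carry 7 dots each, and the rows of *Sfxn1* and *Mthfd2l* carry none.

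Whether the genotype difference in glia departs from that in all neuron-like nuclei pooled was tested directly, in 1 fit per glial class. For OPC-like, astrocyte-like and *Inpp5d Siglech* nuclei the p-values match a normal distribution at the fold change and its SE. They thus rest on a spread shared over genes and hardly measure each gene's own spread between mice. In OPC-like nuclei 2 of 9 genes changed more than in neuron-like nuclei and 0 less, against 1.04% and 0.695% of all genes. These were *Mthfd2*, by 1.88 in log2 units (edgeR adjusted p = 4.25e-13), and *Mthfd1l*, by 1.12 (adjusted p = 3.83e-08), and both passed in every setting run, the one without the library labelled WT1 included (2.17 and 0.93). For the 3 serine synthesis genes the difference was 0.30 to 0.47 and did not pass. The neuron-like side pools all subtypes, and there *Mthfd2* changed by 0.73 and *Mthfd1l* by 0.01. *Mthfd2* passed in L4/5 IT-like (1.48), DG-like (1.62) and *Sst*-like nuclei (1.66). *Mthfd1l* passed in DG-like (0.79) and *Sst*-like nuclei (0.90), and in the remaining subtypes neither gene passed. Their changes in OPC-like nuclei were 2.62 and 1.12. OPC-like nuclei were not tested against single subtypes.

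In astrocyte-like nuclei 0 genes changed more and 2 less than in neuron-like nuclei (0.771% and 0.411% of all genes). *Phgdh* differed by -1.16 (edgeR adjusted p = 0.00276), and *Aldh1l2*, with only 6, 5, 3 and 1 astrocyte-like UMIs, by -3.57 (adjusted p = 0.00296). *Aldh1l2* was too low to test in astrocyte-like nuclei alone and entered this fit through its level in neuron-like nuclei, so its value is given as a description. Without the library labelled WT1 both passed (-1.34 and -3.90), and neither passed with DESeq2 or without the library labelled WT2 or KO1. In oligodendrocyte-like nuclei 0 changed more and 3 less (0.616% and 1.26%), *Phgdh* by -0.84 (adjusted p = 0.0377), *Psph* by -0.87 (adjusted p = 0.0206) and *Aldh1l2* by -2.08 (adjusted p = 0.000313), where the median of all genes was -0.21. *Phgdh* passed in 0 and *Psph* in 1 of 7 other settings, and *Aldh1l2* in 5, also without the library labelled WT1 (-1.85) but not without that labelled KO2 or with DESeq2. In *Inpp5d Siglech* nuclei 0 changed more and 2 less (0.127% and 0.623%), *Phgdh* by -1.86 (adjusted p = 0.00262) and *Mthfd2* by -1.21 (adjusted p = 0.0108), with a median of all genes of -0.12. Neither passed without the library labelled WT1 or KO1, or with DESeq2.

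Of the neighbouring pathways, the glycine cleavage, folate transport and sideroflexin lists had no gene past the threshold in OPC-like nuclei (0 of 3, 0 of 1 and 0 of 4 tested). In the methionine cycle and transsulfuration 1 of 6 rose, *Mat2a*, which makes S-adenosylmethionine (155, 177, 400 and 311 CPM, 1.11 ± 0.162, adjusted p = 0.000151). Among genes of serine and glycine transport and use 3 of 7 rose, the neutral amino acid transporters *Slc1a4* (1.95 ± 0.252) and *Slc38a2* (0.83 ± 0.156) and the glycine transporter *Slc6a9* (1.14 ± 0.270). The median log2 fold changes of these last 2 lists were -0.05 and 0.32, beside 0.01 for all genes.

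In oligodendrocyte-like nuclei *Mat2a* (263, 367, 821 and 985 CPM, 1.49 ± 0.199, edgeR adjusted p = 0.0122) and *Slc1a4* (1.34, 1.15, 11.9 and 10.7 CPM, 3.09 ± 0.476, adjusted p = 0.0150, entering only through the Sel1L Syn-Cre libraries) rose, as 1 of 6 and 1 of 8 tested in their lists, and no gene of the cytosolic folate cycle (0 of 8), glycine cleavage (0 of 3), folate transport (0 of 1) or sideroflexin (0 of 4) lists did. *Mat2a* and *Slc1a4* did not overlap between genotypes. In astrocyte-like and *Inpp5d Siglech* nuclei no gene of any list passed, with 1195 and 843 of all genes at an unadjusted p under 0.05. In all neuron-like nuclei none of the metabolic lists had a gene past the threshold, and the transport genes *Slc1a4* and *Slc38a2* rose in each of the 4 subtypes where members passed.

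Of 16 genes listed as *Atf4* and its targets, 10 of 12 tested rose in OPC-like nuclei, of which 7 (*Atf5*, *Ddit3*, *Eif4ebp1*, *Nupr1*, *Sesn2*, *Slc7a11* and *Slc7a5*) entered only through the Sel1L Syn-Cre libraries, which leaves 3. The counts were 4 of 9 in oligodendrocyte-like (1 of them, *Nupr1*, entering that way), 0 of 9 in astrocyte-like, 0 of 6 in *Inpp5d Siglech* and 2 of 16 in all neuron-like nuclei. *Asns*, the asparagine synthetase, was at 10.3, 13.1, 110 and 65.9 CPM in OPC-like nuclei (2.93 ± 0.291, edgeR adjusted p = 1.36e-06), and *Atf5* at 5.17, 7.26, 91.7 and 86.3 (3.85 ± 0.286, adjusted p = 2.20e-08). *Nupr1* had 1 and 0 UMIs in the flox/flox and 133 and 96 in the Syn-Cre libraries. Of 12 genes for chaperones and degradation in the endoplasmic reticulum, *Sel1l* itself among them, 10 of 12 rose in OPC-like (3 entering that way: *Creld2*, *Derl3* and *Sdf2l1*), 5 of 11 in oligodendrocyte-like (2 entering that way, *Derl3* and *Sdf2l1*), 0 of 9 in astrocyte-like, 0 of 9 in *Inpp5d Siglech* and 4 of 12 in neuron-like nuclei, where *Derl3* was at 0.505, 0.557, 17.1 and 10.6 CPM. *Hspa5*, the chaperone BiP, was at 37.9, 40.6, 201 and 137 CPM in OPC-like nuclei (2.11 ± 0.211, adjusted p = 1.42e-06). Of all genes tested, 1.86% rose in OPC-like and 0.759% in oligodendrocyte-like nuclei, and 0.164% passed in either direction in neuron-like nuclei. The classes in which members passed were among those in which genes of both lists passed. Genes of both lists also passed in all neuron-like, L6 CT-like and *Lamp5*-like nuclei, where no member did. For the 2 lists, entry only through the Sel1L Syn-Cre libraries was not screened in neuron-like nuclei or the subtypes. *Derl3*, for example, had 0 and 0 UMIs in the Sel1L flox/flox libraries in *Sst*-like and in *Lamp5*-like nuclei, so it could only be called higher. Which classes hold calls of both lists is therefore a description.

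Over the 15 classes and subtypes of the Sel1L flox/flox libraries, the gene of 18201 compared whose log2 CPM followed *Phgdh* most closely was *Fundc1* (Pearson r = 0.978), followed by *Pcif1* (0.968) and *Cops3* (0.966). *Psat1* was followed by *AI182371* (0.962), *Nkx2-2os* (0.957) and *Pgp* (0.955), *Psph* by *Rrs1* (0.946) and *Mat2a* (0.932), and *Sfxn1* by *Grk3* (0.906), *Arrb1* (0.894) and *Slc1a4* (0.889). For *Mthfd1l* the highest r was 0.746 (*Gm45352*). These are descriptions, since all points share 2 libraries and the classes differ in depth.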

How the data were processed

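Single-nucleus RNA of 4 libraries was used, 2 of each genotype. Per the labels the authors used Cell Ranger 6.1.0 and GRCm38, and what they deposited is a UMI count for each of 32286 features in each barcode, unnormalized and with doublets still in. Whether introns were counted is not given in the sources used here. The annotation GENCODE vM21 places *Mthfd2* and *Mthfd1l* over other genes of the same strand, and *Psat1*, *Psph*, *Shmt2* and *Aldh1l2* over antisense genes, so reads could be split or shared there.

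From these counts, nuclei with over 600 genes and under 5% mitochondrial UMIs were kept, and the highest Scrublet scores (scanpy 1.11.5), at 0.8% per 1000 barcodes, were removed as doublets (434 to 1270 per library). Libraries were integrated and clustered in Seurat 5.3.0 (17 dimensions, resolution 0.2, neurons again at 0.4) without the 9 genes or the 69 genes of the 8 other lists, and clusters were named from at least 3 markers. Counts summed per class and library were tested in edgeR 4.0.16 (TMM, filterByExpr, prior count 0.125, quasi-likelihood), with a library term where classes were compared. The SE of a fold change was its size divided by the root of F. The tests were run on simulated counts with the same spread for every gene, to check the direction of the fold changes. That spread is not the one between mice, so error rates in these data were not measured. Alternatives were DESeq2 1.42.0, RLE factors, no filter, a replicate block, doublets kept, a prior count of 2, thinned sums, Leiden names without integration, Sel1L Syn-Cre libraries for the baseline, and each library left out. Chosen after seeing the data, unnamed sub-clusters were left out in the genotype fits of astrocyte-like and oligodendrocyte-like nuclei. The baseline fits and those of the difference between glia and neurons were not repeated without these sub-clusters.

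Named genes are the 9 members, listed genes past an adjusted p of 0.05 in a glial class, up to 2 per list in neurons, and the genes closest in pattern. The members, the lists and the tests were chosen with earlier results of these data known. Scripts ran in Python 3.11.15 (pandas 2.3.3, numpy 2.4.6) and R 4.3.3. Some results of the other lists are not reported here.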

Additional observations from a re-analysis of the deposited data

Results flagged for a closer look

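For 9 values, a gene's genotype difference in a glial class departed from that in all neuron-like nuclei pooled by the test of the difference (edgeR, adjusted p under 0.05). *Mthfd2* and *Mthfd1l* changed more in OPC-like nuclei, by 1.88 and 1.12 on the log2 scale. *Phgdh* changed less in astrocyte-like (-1.16), oligodendrocyte-like (-0.84, in no other of 7 settings) and *Inpp5d Siglech* nuclei (-1.86). *Aldh1l2* changed less in oligodendrocyte-like nuclei (-2.08, from 82, 38, 14 and 3 UMIs in that class). Its astrocyte-like value (-3.57) rests on 6, 5, 3 and 1 UMIs, too few to test in that class alone. Also smaller were the changes of *Psph* in oligodendrocyte-like nuclei (-0.87) and of *Mthfd2* in *Inpp5d Siglech* nuclei (-1.21). None of these smaller changes passed with DESeq2, while both of the larger ones in OPC-like nuclei did. The library labelled WT1, of the genotype Sel1L flox/flox, held 408 Cre UMIs, against 0 in the one labelled WT2.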

How the results depend on the processing

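Of 64 member values past the threshold, 39 passed in every setting run: 5 of 8 genotype differences in glia, 10 of 18 in neuronal subtypes, 22 of 29 baseline differences and 2 of 9 differences between glia and neurons. The genotype differences include 5 genes that entered only through the Sel1L Syn-Cre libraries and could only be called higher. These are *Shmt2* in OPC-like, *Phgdh* in L4/5 IT-like, and *Phgdh*, *Psat1* and *Shmt2* in *Sst*-like nuclei. *Phgdh* in *Sst*-like nuclei is counted among the 10. Of 118 values that passed in no setting, 42 changed sign in some setting. The cause was not tested for the changes below, beyond the settings' own construction. The count of members passing was 1 in oligodendrocyte-like nuclei, 0 with doublets kept and 1 to 2 with a library left out. It was 0 in all neuron-like nuclei, 4 with DESeq2, 4 without a filter and 0 to 5 with a library left out, and 18 over the subtypes, 28 without a filter and 10 to 26 with a library left out. Baseline calls in *Inpp5d Siglech* nuclei were 5, and 3 with DESeq2. Differences between glia and neurons were 2 in astrocyte-like (0 with DESeq2, 0 to 2 with a library left out), 3 in oligodendrocyte-like (0 with DESeq2, 1 without a filter, 1 with doublets kept, 0 to 2 with a library left out) and 2 in *Inpp5d Siglech* nuclei (0 with DESeq2, 0 to 2 with a library left out). By mean share of flox/flox nuclei with a UMI, 9 of 9 members were highest in a glial class after thinning to 2000 or 4000 UMIs and 4 without thinning, where neuronal nuclei are deeper. This count sets the highest of 4 glial classes against the neuron-like class, and the share over all genes was not counted. It does not show that each member is higher in glia, and *Shmt2* had no baseline difference past the threshold.

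Directions turned in 4 values. *Shmt2* in *Pvalb*-like nuclei was 1.29, and -0.27 to 2.04 with a library left out, the lowest without that labelled KO1. In the Sel1L Syn-Cre libraries the baseline difference was -1.32 for *Aldh1l2* in oligodendrocyte-like, and -1.09 for *Psat1* and -0.36 for *Mthfd2* in *Inpp5d Siglech* nuclei. Replicate numbers are shared by the genotypes, and no pairing is known. The correlation of same-numbered deviations was 0.0378 to 0.242 over 16 classes and subtypes. With 2 pairs this cannot decide whether same-numbered libraries share a batch. With the replicate block the counts were 2 in oligodendrocyte-like, 4 in all neuron-like nuclei, 7 in OPC-like nuclei and 23 over the subtypes. With 2 mice per genotype and few UMIs for *Shmt2*, *Aldh1l2* and *Sfxn1* in some classes, smaller differences were not detectable.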
